A study of Mus musculus with 2 samples.

Results

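Axon guidance genes of the ephrin, Slit-Robo and netrin families were described in whole forebrain of newborn mice. Protein-coding genes were taken by symbol from the GENCODE M21 annotation of mm10. They comprised 14 Eph receptors, 8 ephrins, 3 Slits, 4 Robo receptors, 4 secreted netrins, 2 netrin-G proteins, 4 Unc5 receptors, Dcc and Neo1. These were 41 of 22028 protein-coding genes and of 55536 genes in all. Polyadenylated RNA had been sequenced from 2 single forebrains of strain B6NCrl at an age of 0 days, one from pup 1 and the other from pup 3, each from 10 ng of RNA. The labels name no treatment, the sex was not collected, and the pups formed the only group. The labels also gave both pups the same donor identifier, so that they are separate animals rests on the pup numbers. No test between groups was possible, and the smallest two-sided exact p that 2 pups allow is 0.5. What separates the pups is reported by its size, with no p-value.

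Guidance receptors sit on the growth cone, the moving tip of a growing axon, and read cues on other cells or in the matrix. Eph receptors are tyrosine kinases that bind membrane-anchored ephrins. Ephrin-A ligands are held by a lipid anchor and ephrin-B ligands span the membrane, and contact between Eph and ephrin often makes an axon withdraw. Slits are secreted repellents read by Robo receptors, and netrins are secreted cues that attract through Dcc and repel through Unc5 receptors. In the late embryonic and newborn forebrain these systems shape the corpus callosum, the paths between thalamus and cortex, and the migration of interneurons.

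Most of the guidance genes were expressed. Levels are in TPM, a relative measure of transcript abundance that is scaled for transcript length, so that genes can be set side by side. With detection set at 1 TPM in each pup, 35 of 41 guidance genes (85.4%) were detected, against 59.5% of all protein-coding genes. The 6 others were Epha1, Epha2, Robo3, Ntn4, Ntn5 and Unc5b. The median level over the 41 genes was 6.74 ± 0.98 TPM (SD of the medians of the 2 pups, 7.84 and 6.45 TPM), and the median over all protein-coding genes was 3.77 ± 0.79 TPM. Among genes detected in both pups the order was the other way round, with 8.96 TPM for the 35 guidance genes and 17.1 TPM for 13113 protein-coding genes. The 41 genes took 0.190% of the expected counts in pup 1 and 0.160% in pup 3. When the genes were ordered by mean TPM, the ranges of the pups overlapped for 34 of the 40 pairs of neighbours, so most neighbours were not separated. Efnb3 stood apart at the top, and Robo2 from Ephb6, Ephb6 from Efna2, Efna5 from Slit1, Ephb2 from Ntng2 and Epha10 from Unc5b were the other steps where the ranges did not overlap. The step from Ephb6 to Efna2 rested on Ephb6-203, an incomplete entry of 459 bases with 40.3 and 59.4 expected counts. With transcripts of 1000 bases or more alone, Ephb6 had a mean of 21.3 TPM and Efna2 of 25.1 TPM, the reverse order.

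**Figure D1:**
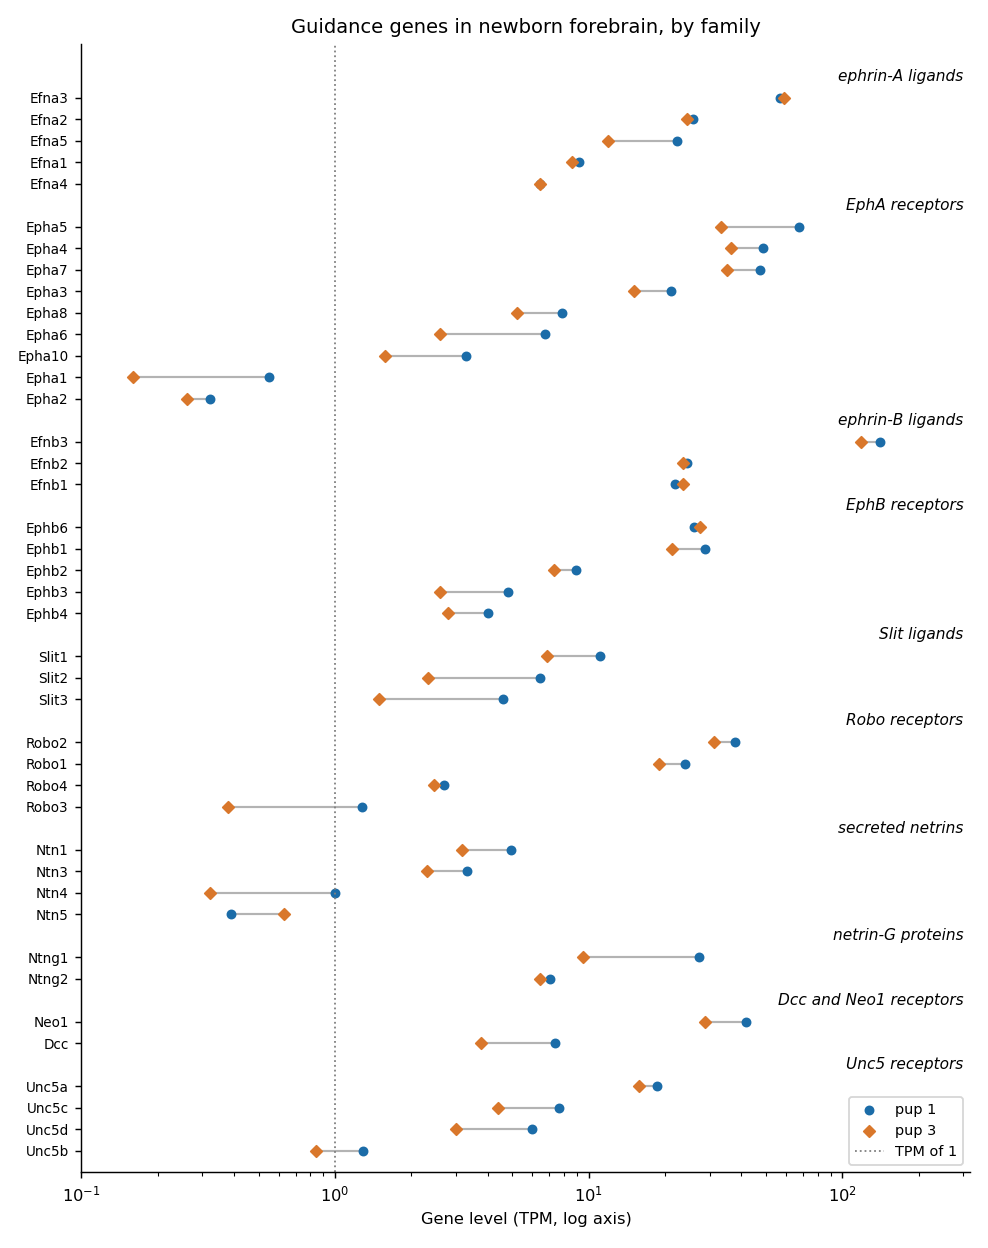
TPM of each guidance gene (log axis) in pup 1 (circles) and pup 3 (diamonds), grouped by family, with a dotted line at a TPM of 1 and a grey line joining the 2 pups. Efnb3 lies highest, at 141 and 118 TPM, and Ntng1 shows one of the wider gaps, at 27.2 and 9.49 TPM.

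The ephrin-B ligands were the most abundant family of cues. Efnb3, known as a midline barrier for corticospinal axons, was listed at 141 in pup 1 and 118 TPM in pup 3 (mean 129.7 ± 16.1 SD, n = 2). It was the highest of all guidance genes, at the 94.3rd percentile of protein-coding genes, and held 75.2% and 71.6% of the ephrin-B sum. Efnb3 lies on chromosome 11 (mm10, 69554092 to 69560205, minus strand) and has a single listed transcript. Efnb2, a ligand shared by neurons and arterial vessels, was at 24.5 and 23.4 TPM, and Efnb1, the X-linked member, was at 21.97 and 23.54 TPM. The levels of Efnb1 and Efnb2 overlapped between the pups, and both lay well below Efnb3. The within-library log2 ratio of Efnb3 to Efnb2 was 2.43 ± 0.14.

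Among the ephrin-A ligands Efna3 led, with 56.9 in pup 1 and 58.7 TPM in pup 3, which was 47.1% and 53.3% of the family sum. Its exons overlap an antisense gene over 14.1% of their bases, and that antisense gene was at 0.37 and 0.12 TPM. Efna2 followed at 25.9 and 24.4 TPM. Efna5, a ligand known for topographic maps and for the sorting of thalamic axons, was at 22.3 in pup 1 and 11.9 TPM in pup 3. Efna1, also a vessel and epithelial ligand, was at 9.15 and 8.59 TPM, and Efna4 was at 6.43 and 6.45 TPM. Efna5 was thus the one ephrin-A whose pups stood far apart, and the log2 ratio of Efna5 to Efna3 was -1.35 in pup 1 and -2.29 in pup 3.

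EphA receptors, which bind the ephrin-A ligands, were led by 3 genes in TPM over all transcripts. Epha5 was at 67.6 in pup 1 and 33.2 TPM in pup 3. Epha4, which also binds ephrin-B ligands and is known for midline guidance of the corticospinal tract, was at 48.5 and 36.5 TPM. Epha7, a receptor of cortical and thalamic neurons, was at 47.3 and 35.0 TPM. Over all transcripts, Epha4 and Epha7 stood at nearly the same level within each library, with a log2 ratio of 0.04 in pup 1 and 0.06 in pup 3. From expected counts the mean log2 ratio was 0.45. On protein-coding transcripts alone, Epha4 was at 32.4 and 26.7 TPM and Epha7 at 39.0 and 30.6 TPM, so Epha7 was the higher in both pups. Epha3 came next with 21.02 and 15.05 TPM, and the log2 ratio of Epha5 to Epha3 was 1.41 ± 0.39. Epha8 was at 7.84 and 5.23 TPM, Epha6 at 6.70 and 2.60 TPM, and Epha10, whose kinase domain is thought to be inactive, at 3.27 and 1.57 TPM. Epha1 and Epha2, receptors better known from epithelia, were at 0.55 and 0.16 TPM and at 0.32 and 0.26 TPM. Exons of Epha1 overlap those of Zyx on the opposite strand over 6.01% of their bases, Zyx was at 42.6 and 34.6 TPM, and strandedness was not given in the sources used here.

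Epha7 was split by the transcript tables into a short and a long receptor, and the short one led in both pups. Epha7-202 has 10 coding exons and 610 codons and ends before the kinase domain, while Epha7-201 has 17 coding exons and 998 codons. Epha7-202 took 63.4% of the TPM of Epha7 in pup 1 and 75.7% in pup 3, and Epha7-201 took 16.8% and 8.80%. In TPM the short form was at 29.98 and 26.44, so the pups lay close, and the long form was at 7.94 and 3.07. Of the reads assigned to Epha7, 53.7% and 71.0% went to complete coding transcripts of the shorter kind. The 2 forms share their first 1798 coding bases and then part. The coding sequence on either side of that point is shown here because it marks where the receptor loses its kinase, with the shared bases in lower case and the bases of each form's own end in capitals (5′ to 3′, chromosome 4, plus strand, GENCODE M21 transcripts on mm10). For Epha7-201 the capitals are only the start of the further coding sequence, and for Epha7-202 they run to its stop codon.
Epha7-201: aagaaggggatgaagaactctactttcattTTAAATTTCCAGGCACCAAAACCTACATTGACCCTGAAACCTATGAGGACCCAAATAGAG
Epha7-202: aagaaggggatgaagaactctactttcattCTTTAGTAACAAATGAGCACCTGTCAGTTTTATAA

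EphB receptors, which bind ephrin-B ligands, were led by a pair of genes at similar levels over all transcripts. Ephb1 was at 28.8 in pup 1 and 21.3 TPM in pup 3, and Ephb6, a receptor without kinase activity, was at 26.1 and 27.5 TPM. Their pup ranges overlapped, and together they made up most of the family sum of 72.7 and 61.5 TPM. An incomplete entry of 459 bases, Ephb6-203, held 16.4% and 20.4% of the TPM of Ephb6. With transcripts of 1000 bases or more alone, the mean level was 21.3 TPM for Ephb6 and 25.1 TPM for Ephb1. Ephb2, known for commissural axons and for synapses, was at 8.92 and 7.32 TPM, with a log2 ratio to Ephb1 of -1.61 ± 0.11. Ephb3 was at 4.82 and 2.59 TPM, and Ephb4, the venous endothelial receptor for ephrin-B2, was at 4.01 and 2.78 TPM. Markers of endothelium were present beside it, with a summed level of 218.2 in pup 1 and 225.7 TPM in pup 3.

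Ephb1 also had 2 long forms. Ephb1-201 took 69.3% of the gene's TPM in pup 1 and 78.4% in pup 3, and Ephb1-202 took 25.3% and 18.3%. Ephb1-202 lacks 123 coding bases in frame, so that 984 codons become 943. The missing bases code for part of the stretch on the inner side of the membrane and run into the start of the kinase domain. The capitals of Ephb1-201 and Epha7-201 share the run CTACATTGACCC. The junction is shown with the bases that only Ephb1-201 holds in capitals, of which the first part is printed (chromosome 9, minus strand).
Ephb1-201: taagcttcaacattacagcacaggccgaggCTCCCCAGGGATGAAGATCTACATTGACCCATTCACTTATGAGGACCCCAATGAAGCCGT
Ephb1-202: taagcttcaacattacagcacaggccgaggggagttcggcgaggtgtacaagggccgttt

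Summed over each family, ligands and receptors stood in different proportions. EphA receptors summed to 203.1 in pup 1 and 129.5 TPM in pup 3, and ephrin-A ligands to 120.7 and 110.0 TPM, a ligand-to-receptor ratio of 0.59 and 0.85. Ephrin-B ligands summed to 187.5 and 165.3 TPM, a ratio to EphB receptors of 2.58 and 2.69. With protein-coding transcripts alone, which leaves out Epha5-207 and Epha4-207 described below, the A ratio was 0.88 in pup 1 and 1.16 in pup 3, so it stayed below 1 in pup 1 and passed 1 in pup 3. The B ratio under that setting was 2.62 and 2.72. Several receptors bind ligands of the other class, and the sums say nothing of protein.

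Robo receptors were far above their Slit ligands in RNA. Robo2 was at 37.6 in pup 1 and 31.1 TPM in pup 3, and Robo1 was at 24.0 and 18.9 TPM. Both are receptors of growing axons and migrating neurons. Their within-library log2 ratio was 0.68 ± 0.05, one of the narrowest spreads among the 12 gene pairs. Robo4, the endothelial member, was at 2.69 and 2.46 TPM. Robo3, known for the crossing of hindbrain and spinal commissural axons, was at 1.28 and 0.38 TPM. Among the midbrain and hindbrain markers Th was at 6.51 and 7.09 TPM, and the 7 others were at 1.51 TPM or less in both pups. The leading Robo1 entry, Robo1-206, is annotated as incomplete and starts upstream of Robo1-201, the complete form. Robo1-206 took 56.1% and 49.1% of the TPM of Robo1, and Robo1-201 took 33.2% and 41.6%.

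Slits, the repellent ligands of Robo1 and Robo2, stood at low levels. Slit1 was at 11.0 in pup 1 and 6.88 TPM in pup 3, Slit2 at 6.40 and 2.32 TPM, and Slit3 at 4.59 and 1.49 TPM. Slit1 held 50.1% and 64.4% of the Slit sum, and the log2 ratio of Slit2 to Slit1 was -0.78 in pup 1 and -1.53 in pup 3. The Slit sum over the Robo sum was 0.34 in pup 1 and 0.20 in pup 3. For Slit3, 34.4% and 8.51% of the TPM sat on a non-coding entry of 459 bases with 14.8 and 1.34 expected counts. Non-coding or decay entries held 44.1% and 25.5% of the TPM of Slit2. Protein-coding transcripts were at 3.58 and 1.72 TPM for Slit2 and at 2.91 and 1.36 TPM for Slit3. Slit2 lies on chromosome 5 (47983138 to 48307733, plus strand). Its deposited TPM lay outside its own deposited interval in both pups, as did that of Efnb3, so the intervals of these 2 genes were not centred on the point value.

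Slit1 was split between 2 ends of the protein. Slit1-203, with 1458 codons, took 54.0% of the gene's TPM in pup 1 and 57.0% in pup 3, and Slit1-201, with 1531 codons, took 43.6% and 36.8%. The shorter form parts from the longer one after 4357 shared coding bases and replaces the last 239 coding bases, where Slit proteins carry a cysteine-rich knot, with an end of its own. The switch is shown with the bases of each form's own end in capitals, which for Slit1-203 run to the stop codon (chromosome 19, minus strand).
Slit1-201: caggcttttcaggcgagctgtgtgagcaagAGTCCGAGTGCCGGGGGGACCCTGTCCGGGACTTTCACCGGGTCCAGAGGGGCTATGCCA
Slit1-203: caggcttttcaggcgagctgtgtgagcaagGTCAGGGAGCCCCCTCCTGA

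Secreted netrins were low. Ntn1, the netrin of the floor plate and of the corpus callosum, was at 4.96 in pup 1 and 3.18 TPM in pup 3, and Ntn3 was at 3.31 and 2.30 TPM. Ntn4, a basement membrane netrin, was at 1.00 and 0.32 TPM on 44 and 23 expected counts, and Ntn5 was at 0.39 and 0.63 TPM on 15.1 and 27.9 expected counts. Exons of Ntn5 overlap Sec1 over 23.4% of their bases and those of Ntn3 overlap Tbc1d24 on the same strand over 1.74%. Tbc1d24 was at 19.4 and 12.5 TPM, and its part in the level of Ntn3 was not tested. The log2 ratio of Ntn1 to Slit1 was -1.11 ± 0.03.

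Netrin receptors were led by Neo1, a relative of Dcc that also binds repulsive guidance molecules, with 41.6 in pup 1 and 28.8 TPM in pup 3. Dcc, the attractive netrin receptor, was at 7.39 and 3.76 TPM. The log2 ratio of Dcc to Neo1 was -2.69 ± 0.30. Among the repulsive Unc5 receptors, Unc5a was highest at 18.6 and 15.8 TPM, and it held 55.6% and 65.6% of the Unc5 sum. Unc5c was at 7.62 and 4.40 TPM, Unc5d, a marker of upper-layer cortical neurons, at 5.96 and 3.01 TPM, and Unc5b, better known from vessels, at 1.29 and 0.84 TPM. The log2 ratios were 1.55 ± 0.38 for Unc5a to Unc5c and 1.93 ± 0.28 for Unc5d to Unc5b. For Unc5c, 47.3% and 41.4% of the TPM sat on a non-coding entry of 357 bases with 24.3 and 13.8 expected counts. With transcripts of 1000 bases or more alone, the mean level of Unc5c was 3.12 TPM. Protein-coding transcripts were at 2.83 and 2.36 TPM for Unc5c and at 18.3 and 15.7 TPM for Unc5a. The ratio of Unc5a to Unc5c and its spread thus rest in part on non-coding entries. Secreted netrins summed to 0.12 of the Dcc, Neo1 and Unc5 receptors in pup 1 and to 0.11 in pup 3, nearly the same in both libraries. With M4, which lacks Ntn3, this proportion was 0.088 and 0.082. With transcripts of 1000 bases or more it was 0.099 and 0.109, so the order of the pups was not kept.

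Netrin-G proteins are lipid-anchored relatives of the netrins that act at contacts between axons and dendrites, and Ntng1 is known from thalamocortical axons. Ntng1 was at 27.2 in pup 1 and 9.49 TPM in pup 3, on 1984 and 856 expected counts, and its deposited intervals did not overlap. Ntng2 was at 7.07 and 6.40 TPM, and exons of Ntng2 overlap a processed transcript on the same strand over 14.0% of their bases. The log2 ratio of Ntng1 to Ntng2 was 1.93 in pup 1 and 0.56 in pup 3, the widest spread of the 12 pairs. The leading Ntng1 transcript, Ntng1-208, took 42.1% and 47.1% of the TPM. It lacks 303 coding bases in frame of Ntng1-202, in the part where netrin-G forms differ in their laminin-type repeats. The junction is shown with the start of the bases that Ntng1-208 lacks in capitals (chromosome 3, minus strand).
Ntng1-202: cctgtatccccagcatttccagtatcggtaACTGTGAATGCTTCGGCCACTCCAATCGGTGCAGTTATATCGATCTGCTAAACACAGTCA
Ntng1-208: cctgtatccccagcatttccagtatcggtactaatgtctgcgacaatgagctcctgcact

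Of the 36 guidance genes whose mean TPM reached 1, 32 (88.9%) had the lower TPM in pup 3, close to the 81.9% of all protein-coding genes at that level. The size of a difference is a log2 ratio, pup 3 over pup 1, after adding 1 to each TPM. The median over the 13474 protein-coding genes whose mean TPM reached 1 was itself -0.25, so differences are given relative to it. With TMM scaling of counts that median was 0.01. The median of the 36 guidance genes whose mean TPM reached 1 was -0.17 relative to the protein-coding median, with 26 below and 10 above. Where at least 1 pup reached 5 TPM, 5 of 28 guidance genes (17.9%) lay more than 1.5-fold below the median in pup 3, against 4.12% of all protein-coding genes. None of the 28 lay more than 1.5-fold above it, against 1.98%. The 5 were Ntng1 at -1.18, Slit2 at -0.91, Epha6 at -0.85, Epha5 at -0.76 and Efna5 at -0.61. On protein-coding transcripts alone, Slit2 was at 3.58 and 1.72 TPM and Epha6 at 4.06 and 1.59 TPM, below the 5 TPM minimum. Deposited intervals were separate and lower in pup 3 for 25 of 36 guidance genes (69.4%), against 48.4% of protein-coding genes, and separate and higher for 0 of 36, against 5.94%. These bounds are of TPM as deposited, so the shift of -0.25 in the protein-coding median was not taken out of them. The level of those intervals was not given in the sources used here. They do not cover differences between animals.

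**Figure D2:**
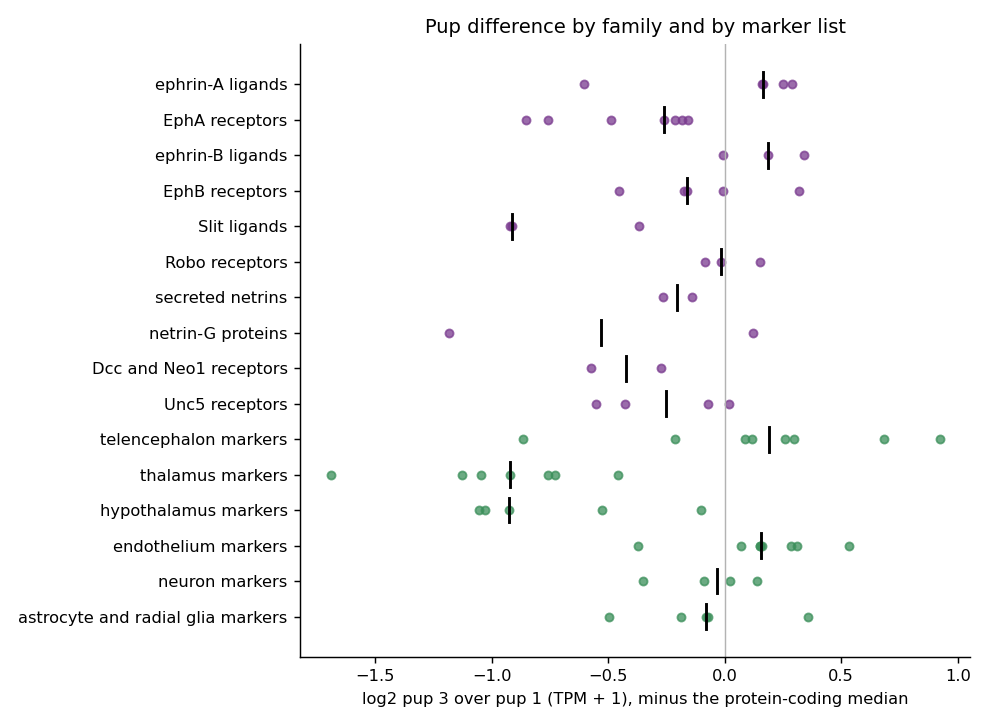
Each point is a gene whose mean TPM reached 1, placed at its log2 ratio of pup 3 over pup 1 minus the protein-coding median, for guidance families (purple) and marker lists (green), and black bars are medians. Slits lie at -0.91, ephrin-A ligands at 0.16, ephrin-B ligands at 0.19 and thalamus markers at -0.92.

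Families differed in where they lay. Relative to the protein-coding median, the family medians were -0.91 for Slits, -0.53 for netrin-G proteins, -0.42 for Dcc and Neo1, -0.26 for EphA receptors, -0.25 for Unc5 receptors, -0.20 for secreted netrins and -0.16 for EphB receptors. Robo receptors were at -0.02, ephrin-A ligands at 0.16 and ephrin-B ligands at 0.19. All 7 EphA receptors whose mean TPM reached 1 lay below 0, and 4 of 5 ephrin-A ligands lay above it, the exception being Efna5. Families hold 2 to 7 genes each at this level, and no difference between families was tested. These medians count every transcript of a gene, non-coding entries such as those of Slit2 and Slit3 included.

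Regional markers moved between the same libraries. All 7 thalamus markers lay below the protein-coding median in their pup difference, at a median of -0.92. By the 1.5-fold rule 6 of them were lower in pup 3, against 4.12% of all protein-coding genes. Their summed level was 363.9 in pup 1 and 145.8 TPM in pup 3. Tcf7l2, the highest, was at 233.2 and 89.6 TPM, and Prox1, the lowest, at 13.4 and 4.89 TPM. The 5 hypothalamus markers whose mean TPM reached 1 also lay below the protein-coding median, and 3 of them were lower in pup 3 by the 1.5-fold rule. That list had a summed level of 212.4 and 95.0 TPM, led by Avp at 149.8 and 66.0 TPM and with Sim1 lowest at 0.41 and 0.15 TPM. Telencephalon markers summed to 482.7 and 567.3 TPM, with Neurod6 highest at 196.8 and 315.7 TPM and Emx2 lowest at 9.26 and 3.75 TPM. Neurod6 alone gained more than the sum did, and 4 of the 8 markers had the lower TPM in pup 3. In their pup difference 2 of the 8 lay below the protein-coding median. By the 1.5-fold rule 2 of the 8 were higher in pup 3 and 1 was lower. The part of these shifts in the lower levels of Ntng1, Slit2, Epha6, Epha5 and Efna5 was not tested. In whole tissue, fewer cells of a type and less RNA per cell cannot be told apart.

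Gene length moved with the pup difference as well. The guidance genes are long, with a median transcript length of 4197 bases against 2438 for protein-coding genes, and a median genomic span of 145.7 kb against 25.0 kb. Across the 36 genes, the Spearman rho of the log2 ratio was -0.69 with genomic span and -0.38 with transcript length. Over 13474 protein-coding genes it was -0.39 and -0.50. These are correlations across genes of the same 2 libraries, given as a description. Measured against protein-coding genes of the same length class, the median of the guidance genes was -0.022, with 19 below and 17 above. Against the same span class it was -0.052, and against both at once it was -0.029. Ntng1 and Slit2 stayed more than 1.5-fold below the median of their class in all 3 versions, and Epha6 in those by length and by length with span. Epha5 stayed below by length alone, and Efna5 in none of the 3. The classes by span, and the median against length classes, were added after the values were seen.

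**Figure D3:**
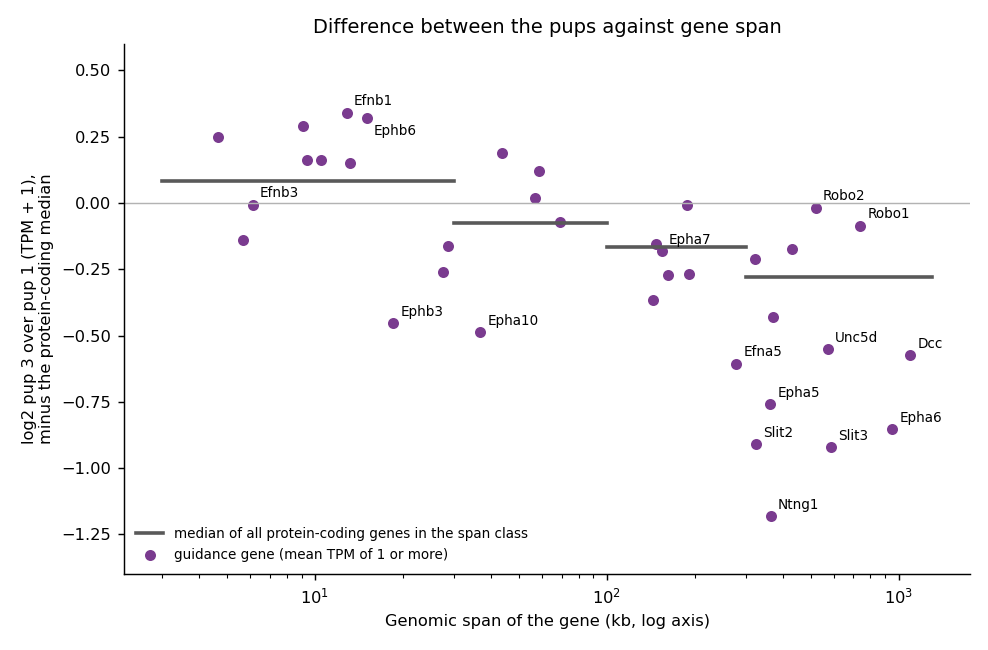
The log2 ratio of pup 3 over pup 1 minus the protein-coding median (vertical axis) against genomic span in kb (log axis) for the 36 guidance genes whose mean TPM reached 1, with the median of all protein-coding genes in each span class as grey bars. The 12 guidance genes of 300 kb or more have a median of -0.56 and the protein-coding genes of that class -0.28, and Robo1 and Robo2 lie above their class.

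Within the long genes the spread was wide. Of 12 guidance genes spanning 300 kb or more, 8 lay below the median of their class. Robo2, at 520.0 kb, was at -0.02 and Robo1, at 737.8 kb, at -0.08, while Slit3, at 587.3 kb, was at -0.92 and Epha6, at 952.0 kb, at -0.85. The Slit3 value includes its short non-coding entry, which held 34.4% of the TPM in pup 1 and 8.51% in pup 3. Of 12 that span under 30 kb, the median was 0.16 against 0.08 for protein-coding genes of that class. This class holds 6 of the 8 ephrins, and also Ephb6 at 0.32, while Ephb3 at -0.45 and Epha8 at -0.26 were the lowest there.

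Transcript use was read for 20 members, those that reached 5 TPM in each pup and have several listed transcripts, and Robo3. Short reads were divided among overlapping transcripts by estimation, so the shares are estimates. The leading transcript was the same in both pups for 20 of 20, and with the M4 annotation for 19 of 20, the exception being Robo1, for which the leading M21 entry has no match there. A complete coding transcript of at least 90% of the longest coding sequence took the most TPM of the 4 classes for each ephrin and EphB receptor among the 20. Ntng1, Ntng2 and Epha7 were led by shorter coding transcripts, at 94.2% and 93.9%, 67.5% and 60.5%, and 63.4% and 76.3% of the TPM in pup 1 and pup 3. The Ntng1 share held Ntng1-201, an entry of 327 bases at 37.5% and 36.2% of the TPM on 60.8 and 23.1 expected counts. For Epha5 the leading entry was Epha5-207, a retained intron with 2246 bases and no coding sequence, at 53.9% and 54.2%. Complete coding transcripts of Epha5 at full length held 9.41% and 10.7%. With protein-coding transcripts alone, the mean level of Epha5 fell from 50.4 to 21.8 TPM and that of Epha4 from 42.5 to 29.6 TPM. Epha5 was then at 29.4 in pup 1 and 14.2 TPM in pup 3, below Epha4 and Epha7 in both pups. In Epha4, an entry marked for nonsense-mediated decay, Epha4-207, held 32.4% and 26.6%.

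**Figure D4:**
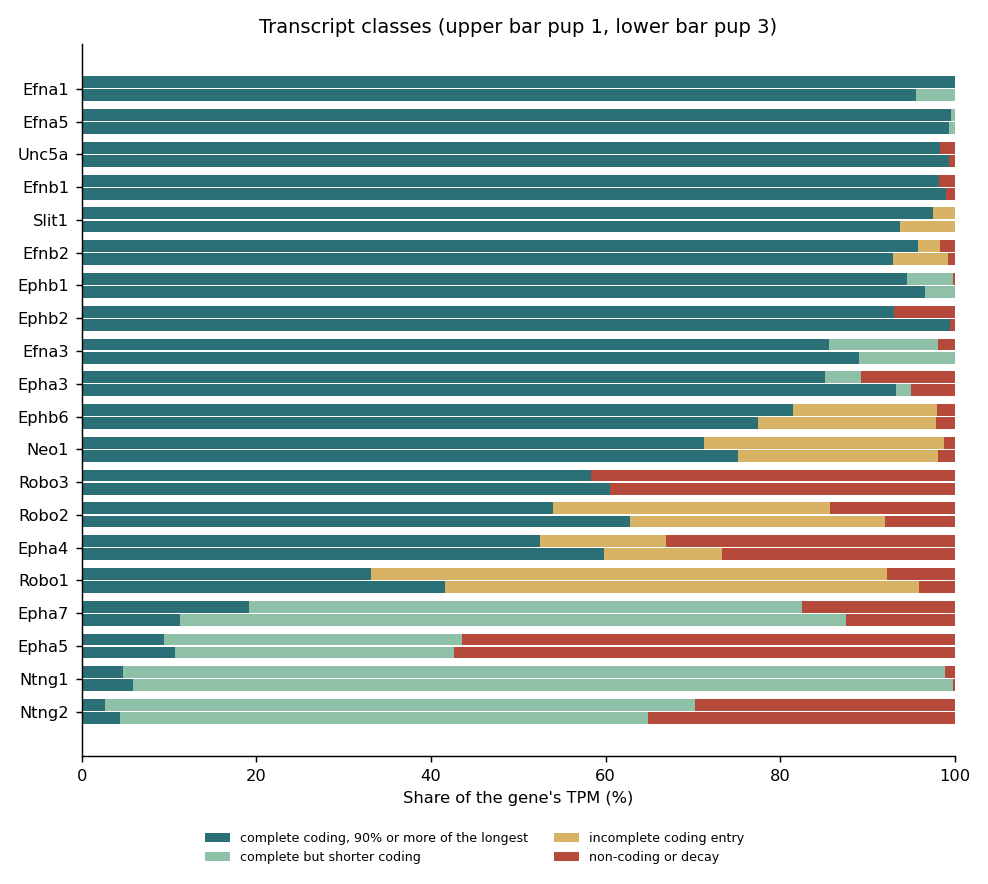
Share of each gene's TPM (%) in 4 transcript classes for 20 members, with the upper bar of each pair for pup 1 and the lower for pup 3. Efna1, Efna5 and Unc5a are almost wholly complete coding, while Epha5 is led by non-coding entries at 56.5% and 57.3%.

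Genes that act with these receptors were described from a list of 45 effectors, co-receptors and other ligands. In both pups 44 of 45 were detected, and the exception was Prrg4 at 0.89 and 0.25 TPM. The 5 highest were Ndfip1, an adaptor of ubiquitin ligases, at 1027 and 884.4 TPM, Evl, an actin regulator, at 214.8 and 199.4 TPM, Nell2, a secreted ligand of Robo3, at 213.5 and 188.1 TPM, Pak1, a kinase of the cytoskeleton, at 111.7 and 105.1 TPM, and Chn1, a Rac inhibitor downstream of Epha4, at 83.9 and 68.0 TPM. Of 40 tested for the 1.5-fold rule, 3 were lower in pup 3 and 0 higher, against 4.12% and 1.98% of all protein-coding genes. These were Tiam1, a Rac activator, at 17.0 and 7.78 TPM, Srgap1, which binds Robo1, at 23.0 and 10.8 TPM, and Enah, an actin regulator that acts in Robo and netrin signalling, at 13.2 and 6.41 TPM. Relative to the protein-coding median they were at -0.79, -0.79 and -0.69.

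Markers of other cell types put these levels in context. Neuron markers ran from 199.6 TPM for Map2 to 1687 TPM for Tubb3, and glial markers from 24.8 TPM for Aqp4 to 2239 TPM for Fabp7. Endothelial markers ran from 5.24 TPM for Tek to 106.4 TPM for Cldn5. Meningeal markers ran from 10.1 TPM for Lum to 121.9 TPM for Igf2, pericyte markers from 5.10 TPM for Cspg4 to 97.2 TPM for Vtn, and microglial markers from 6.38 TPM for Cx3cr1 to 58.9 TPM for C1qb. Of these 32 markers of neurons, glia, vessels, meninges and microglia, 3 passed the 1.5-fold rule between the pups. Lum was higher in pup 3, at 7.76 and 12.4 TPM, and so was Dcn, another meningeal gene and named after its values were seen, at 42.1 and 68.3 TPM. Cx3cr1 was lower, at 8.72 and 4.05 TPM. Their part in the differences of the guidance genes was not tested. Of 8 midbrain and hindbrain markers, 2 were detected in both pups, led by Th at 6.51 and 7.09 TPM, and Hoxb3 and Hoxa2 were at 0 counts in both, which allows up to 3 counts per library. All 8 telencephalon markers were detected in both pups.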

How the data were processed

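Polyadenylated RNA of 2 forebrains was read from gene and transcript tables for mm10. The authors deposited expected counts (estimated, with shared reads split), TPM scaled over all features, FPKM, and, for transcripts, a percent that gives the share of the gene's TPM. Deposited signal values give lower and upper bounds of TPM per gene. Libraries were primed with oligo-dT and tagmented, per the labels. Aligner, quantifier and versions were not given in the sources used here. Libraries held 40964891 and 41230878 expected counts, and intervals of counts cover counting error only. Symbols, spans and transcripts came from GENCODE M21, and all 55536 identifiers matched. Differences used log2(TPM + 1), pairs a pseudocount of 0.1, and detection a TPM of 1. Differences are relative to the protein-coding median, with a call past 1.5-fold at a TPM of 5 or more in a pup. Alternatives used scaling from edgeR 4.0.16 (TMM) and DESeq2 1.42.0 on rounded counts, FPKM, posterior means and M4. Values were computed in Python 3.11.15 with pandas 2.3.3. The members, gene lists and alternatives were chosen with earlier results of these data known, and some lists had been used before on them. Named partner genes were the 5 highest, any under a TPM of 1 and those past 1.5-fold, and of each marker list the highest and lowest. Other transcripts described were chosen after their values were seen. No protein table was used here, so protein features were not compared. Sequences are from the GENCODE M21 transcripts, with none printed for Dcc. Promoters were not used.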

Additional observations from a re-analysis of the deposited data

How the results depend on the processing

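Of 41 guidance genes, 35 were detected, and 33 to 41 under the other settings, including 36 at a TPM of 0.5, 33 at 2, 41 with 10 counts or more, and 35 to 38 with 1 pup left out. The median level of 6.74 TPM was 7.76 with M4 (40 of the genes, without Ntn3) and 8.96 over genes detected in both pups. With 1 pup left out it was 6.45 to 7.84. The median pup difference of -0.17 was -0.31 without a low-value filter, -0.022 against the length class, -0.052 against the span class and -0.029 against both. Under the other settings it was -0.22 to -0.13. It was negative in all settings tried. A difference between pups cannot be recomputed with 1 pup left out. The count of 5 genes past 1.5-fold was 2 with a pseudocount of 5 (Epha5 and Ntng1), 11 without a filter, 2 against the span class (Ntng1 and Slit2), 3 against length and span, and 1 (Ntng1) at 2-fold. It was 7 with TMM or DESeq2 scaling, which added Dcc and Unc5d. None was higher in pup 3 under any of these. No pair ratio changed sign with a pseudocount of 1, expected counts, M4 or 1 pup left out. With expected counts, 9 ratios moved by more than their SD over the pups and 3 did not. With M4, and with a pseudocount of 1, 2 moved. Pairs were not run on protein-coding transcripts alone, where Epha4 was at 32.4 and 26.7 TPM and Epha7 at 39.0 and 30.6 TPM. The sign of that pair thus rests on counting all transcripts. With protein-coding transcripts alone, the ephrin-A to EphA ratio was 0.88 and 1.16, against 0.59 and 0.85. The settings for classes and for transcript length or type were chosen after seeing the data. No paired analysis was possible because the series has 1 group. Protein features were not run. Depth limits the genes with few counts, such as Ntn5 at 15.1 and 27.9 counts.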
